A study of Mus musculus with 4 samples.

Results

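The hair and inner root sheath keratins, 4 further structural or shaft genes and 6 regulators of the hair follicle were followed in laser-captured paw epidermis of mice that overexpress a blocker of bone morphogenetic proteins (BMPs) or a BMP itself. Members were chosen by name, from a list of 31 genes, as the probe sets annotated with exactly 1 of these symbols, and where a gene had several, the brightest on average stood for it. This gave 28 of the 31 genes, 18 keratins among them, out of 19938 genes named on the array. Krt81, Krt83 and Krt85 were not analysed here. The tissue was epidermis of glabrous hindpaw skin, from mice with noggin under the K14 promoter and from mice with BMP4 under the same promoter, which is active in basal keratinocytes. Each array held RNA pooled from 3 animals, with 8 to 10 captured strips per animal, and with 6 animals per line there were 2 arrays for noggin and 2 for BMP4. Age, sex and strain are not stated in the labels, and each pool came from mice with a transgene, so all differences are between the lines. Differences are noggin minus BMP4 in log2 units. As a check of the labelled tissue, the mean log2 value of 9 measured epidermal keratinocyte markers, among them Krt5, Krt14, Krt1 and Krt10, lay between 12.37 and 12.41 on all 4 arrays, whose upper quartiles were 7.66 to 7.71.

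A hair is a column of dead keratinocytes filled with hard keratins, with a cortex inside and a thin cuticle around it, and it grows inside a sheath of living cells. Its keratins form filaments from 1 acidic (type I) and 1 basic (type II) chain, and separate sets serve the shaft and the inner root sheath, the layer that moulds the shaft and is later shed. BMP signalling promotes differentiation of the shaft and sheath, in part by way of Msx2, Gata3 and Foxn1, and noggin promotes follicle formation. Normal footpad skin carries sweat glands and no hair, and in mice with noggin in the skin, hairs have been described in place of footpad sweat glands. Some of these hard keratins are also made outside the follicle, in nail and in the filiform papillae of the tongue.

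Most hair keratins differed little between the lines, but a few stood far higher in BMP4 epidermis, led by the hard keratins Krt84 and Krt36 and the inner root sheath keratin Krt25. In noggin epidermis 23 of the 28 genes had a lower mean, against 52.1% of all named genes. In 20 of the 28 the group means differed by less than 0.5 log2 units. The median size of the difference, whatever its sign, was 0.148 over the 28 genes, against 0.0874 over all named genes. The noggin and BMP4 values did not overlap, with noggin below, in 12 of the 28 genes, against 17.9% of all named genes. They did not overlap, with noggin above, in 2 genes, against 15.7%. In 4 genes, Krt84, Krt36, Krt25 and Krt86, the noggin mean was lower by at least 1 log2 unit, as it was in 0.306% of all named genes. The median difference was -0.11 over the 28 genes and -0.0064 over all named genes. Because the list was drawn up with earlier results of these arrays known, these counts describe it and are not a test of it. Noggin replicate 2 was the lowest of the 4 arrays for 19 of the 28 genes, against 32.6% of all named genes. Without it, 15 of the 28 genes had a lower noggin mean, against 47.4% of all named genes. Without noggin replicate 1, 1 noggin array was set against 2 BMP4 arrays, and it lay below both in 21 of the 28 genes, against 40.3% of all named genes.

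No gene of the list passed the threshold. Limma called 0 of 35556 probe sets (0%) at a Benjamini-Hochberg adjusted p below 0.05, and the adjusted p of the 28 genes ran between 0.736 and 1. At an unadjusted p below 0.05, limma gave 4 of the 28 genes, Krt84, Cux1, Krt25 and Krt73, all lower in noggin, against 4.28% of all named genes. With 2 arrays against 2, an exact permutation test of a single gene cannot give a two-sided p under 0.333. The values below are therefore given array by array. The tissue is a mixture of cells, and fewer cells of a type and less RNA per cell cannot be told apart.

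**Figure D1:**
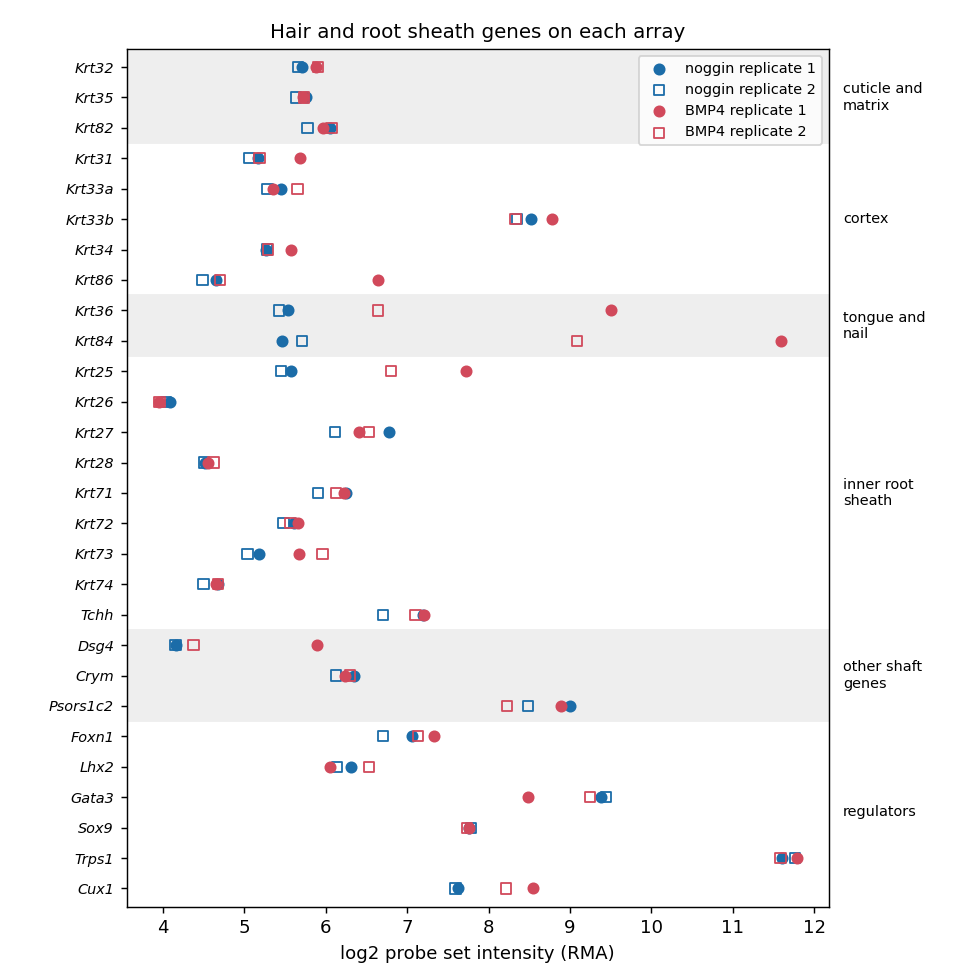
Log2 probe set intensity (horizontal axis) of the 28 measured genes on each array, by class, with noggin arrays in blue, BMP4 arrays in red, replicate 1 filled and replicate 2 open. Krt84 was at 5.47 and 5.71 on the noggin arrays and at 11.6 and 9.09 on the BMP4 arrays, whereas the 4 arrays lay within 0.049 log2 units of each other for Sox9.

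Krt84 and Krt36, hard keratins that are also made in nail and tongue papillae, had the widest differences of the 28 genes. Their class holds these 2 genes alone, and the list was drawn up with earlier results known. Its rank among the classes is therefore no test. Krt84, a type II hair keratin, had log2 values of 5.47 and 5.71 on the noggin arrays, against 11.6 and 9.09 on the BMP4 arrays. The groups were 3.38 log2 units apart at their nearest, while the BMP4 arrays themselves differed by 2.51. The mean was 5.59 ± 0.17 in noggin and 10.3 ± 1.77 in BMP4 (SD, n = 2 each), a difference of -4.75 with a standard error of 0.89 and 95% limits of -7.19 and -2.31 (limma, adjusted p = 0.736). Krt36, a type I hair keratin, had 5.54 and 5.42 on the noggin arrays, against 9.50 and 6.64 on the BMP4 arrays. BMP4 replicate 1 was 4.02 above the noggin mean of Krt36 and BMP4 replicate 2 was 1.16 above it. The difference for Krt36 was -2.59 with 95% limits of -5.36 and 0.18 (limma, adjusted p = 0.879). Leaving out BMP4 replicate 1 gave -3.50 for Krt84 and -1.16 for Krt36, and leaving out BMP4 replicate 2 gave -6.01 and -4.02.

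The cortex keratins make up the bulk of the shaft. Krt86, a type II cortex keratin, had 4.65 and 4.49 on the noggin arrays, against 6.64 and 4.70 on the BMP4 arrays. BMP4 replicate 1 alone was high for Krt86, by 1.94 over the next array. The other 3 arrays lay below their lower quartile of about 4.71, BMP4 replicate 2 only just, and detection above background is unknown there. The difference of -1.10 (limma, adjusted p = 0.940) became -0.13 without BMP4 replicate 1. The type I cortex keratin Krt31 had 5.16 and 5.06 on the noggin arrays, against 5.69 and 5.19 on the BMP4 arrays. Its relative Krt34 had 5.27 and 5.27 in noggin, against 5.57 and 5.29 in BMP4. In both, BMP4 replicate 1 was again the high array and BMP4 replicate 2 lay within 0.021 log2 units of the nearer noggin array. Without BMP4 replicate 1 the difference was -0.07 for Krt31 and -0.02 for Krt34. Krt33a and Krt33b, the remaining measured type I cortex keratins, overlapped between the lines, with differences of -0.14 and -0.12. Hair keratins are close copies of each other, and probes that bind more than 1 of them could mix their values, which was not tested.

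The cuticle and matrix keratins were nearly level, but dim. All 3 were dimmer than the median probe set, so whether level values mean level expression is unknown. Krt32, a type I keratin of the hair cuticle, had 5.71 and 5.66 on the noggin arrays, against 5.88 and 5.91 on the BMP4 arrays. The groups of Krt32 were separate but only 0.17 log2 units apart, with a difference of -0.21 and 95% limits of -0.45 and 0.027 (limma, adjusted p = 0.893). Krt35, a type I keratin of matrix and cuticle, had 5.76 and 5.64 in noggin, against 5.73 and 5.73 in BMP4. Krt82, the type II cuticle keratin, had 6.05 and 5.77 in noggin, against 5.97 and 6.07 in BMP4. The arrays of the lines overlapped for both, and their intervals ran from -0.29 to 0.23 for Krt35 and from -0.47 to 0.26 for Krt82.

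Among the 9 inner root sheath genes, Krt25 and Krt73 stood apart and the rest stayed nearly level. Krt25, a type I keratin of the sheath, had 5.57 and 5.45 on the noggin arrays, against 7.72 and 6.80 on the BMP4 arrays. Both BMP4 arrays of Krt25 were high, the nearest by 1.22 log2 units. The difference was -1.74 with a standard error of 0.34 and 95% limits of -2.67 and -0.82 (limma, adjusted p = 0.736), and it was -1.28 without BMP4 replicate 1. Krt73, a type II keratin of the sheath cuticle, had 5.18 and 5.04 on the noggin arrays, against 5.68 and 5.96 on the BMP4 arrays. For Krt73 it was BMP4 replicate 2 that lay highest, and all 4 values were below the array medians of 6.04 to 6.06. Its difference was -0.71 with 95% limits of -1.09 and -0.33 (limma, adjusted p = 0.736), or -0.85 without BMP4 replicate 1. Krt71, the type II keratin whose mutation gives curly coats in mice and rats, had 6.24 and 5.90 in noggin, against 6.23 and 6.13 in BMP4. Tchh, which encodes trichohyalin, the protein that hardens the sheath and the medulla, had 7.20 and 6.70 in noggin, against 7.20 and 7.10 in BMP4. Neither separated the lines, and nor did Krt27, Krt72 or Krt74. For these 5 overlapping genes the differences ran from -0.20 to -0.026. Krt26, at 4.09 and 4.04 in noggin against 3.95 and 3.96 in BMP4, was the sheath gene whose noggin values both exceeded the BMP4 values. Krt28 had 4.51 and 4.50 in noggin, against 4.55 and 4.62 in BMP4. Krt26, Krt28 and Krt74 lay below the lower quartile on all 4 arrays, so their detection is unknown.

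**Figure D2:**
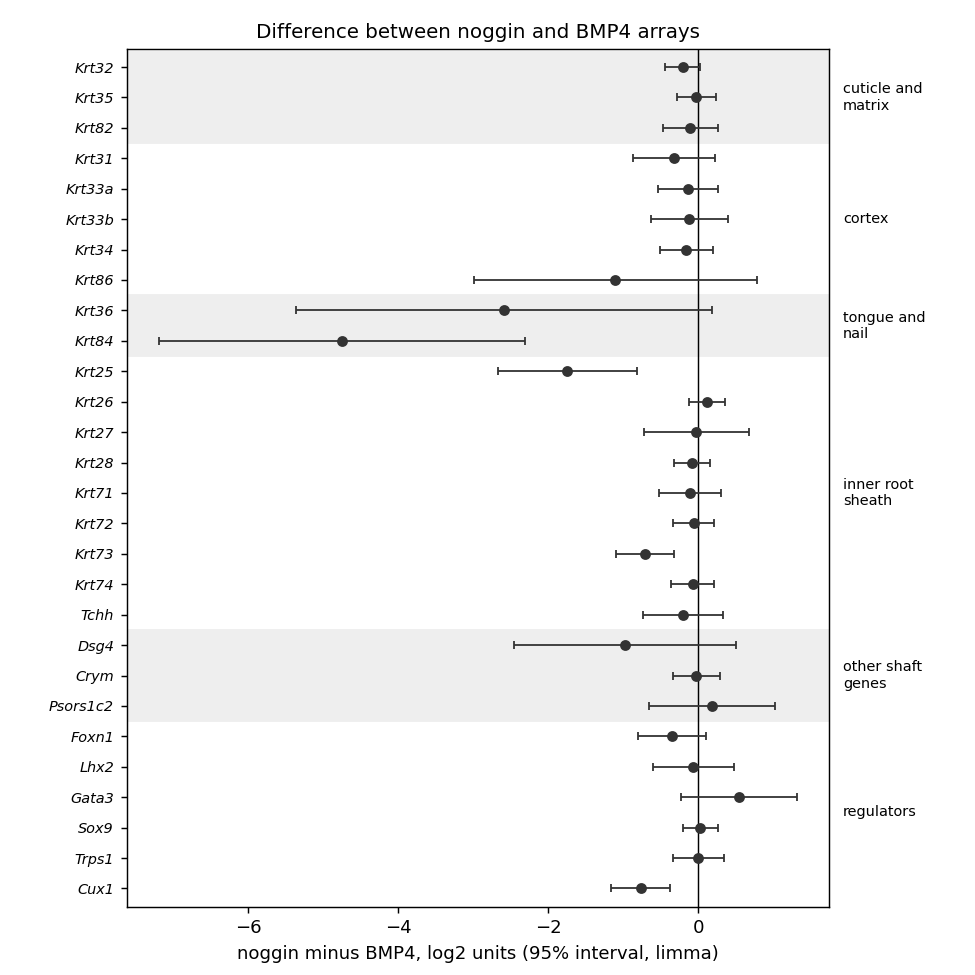
Difference of the group means, noggin minus BMP4 in log2 units, with the 95% interval from limma, for the 28 measured genes by class. The intervals of Krt84, Krt25, Krt73 and Cux1 lie below 0, and none of the 28 passed after adjustment over all probe sets.

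Of the other shaft genes, Dsg4, the desmosomal cadherin of the hair cortex whose loss gives lanceolate hairs in mice, had 4.16 and 4.15 on the noggin arrays, against 5.89 and 4.37 on the BMP4 arrays. Like Krt86, Dsg4 was high on BMP4 replicate 1 and below the lower quartile on the other 3 arrays. Its difference of -0.97 (limma, adjusted p = 0.938) became -0.22 without BMP4 replicate 1. Crym, a thyroid hormone binding protein, had 6.34 and 6.13 in noggin, against 6.24 and 6.29 in BMP4. Psors1c2, a gene of the psoriasis susceptibility region, had 8.99 and 8.49 in noggin, against 8.89 and 8.23 in BMP4. The lines overlapped for both of these.

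The regulators did not move as a group, with 3 of 6 lower and 3 of 6 higher in noggin and a median difference of -0.032. One of the higher, Trps1, differed by only 0.00075, and by -0.022 under cyclic loess. Cux1, a homeodomain factor whose loss disturbs the inner root sheath in mice, had 7.62 and 7.59 on the noggin arrays, against 8.54 and 8.21 on the BMP4 arrays. Both BMP4 arrays of Cux1 were higher, the nearest by 0.59, and the difference was -0.77 (limma, adjusted p = 0.736), with interval limits of -1.17 and -0.37. Foxn1, the factor mutated in nude mice, which activates hair keratin genes, had 7.06 and 6.70 in noggin, against 7.33 and 7.13 in BMP4. The groups of Foxn1 were 0.074 log2 units apart, and the difference of -0.35 was -0.17 without noggin replicate 2. Gata3, which specifies the inner root sheath, ran the other way, with 9.38 and 9.44 in noggin, against 8.49 and 9.25 in BMP4. BMP4 replicate 1 was the low array of Gata3, and the difference of 0.54 (limma, adjusted p = 0.934) was 0.16 without it. Lhx2, a factor of follicle stem cells, had 6.31 and 6.14 in noggin, against 6.05 and 6.53 in BMP4. Sox9, a factor of the outer root sheath and stem cells, had 7.76 and 7.79 in noggin, against 7.76 and 7.74 in BMP4. Trps1, a repressor with GATA-type zinc fingers, had 11.6 and 11.8 in noggin, against 11.8 and 11.6 in BMP4. The lines overlapped for these 3, and the 95% interval of Sox9 ran from -0.21 to 0.26. Trps1 was the only gene of the list with more than 1 probe set, and its other probe set gave -0.029.

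A few genes were high on both BMP4 arrays, and others on 1 of them. Noggin lay below BMP4 without overlap in 12 of the 28 genes, against 17.9% of all named genes. Among these 12, Krt84, Krt36, Krt25, Krt73 and Cux1 had the widest gaps between the lines, down to 0.497 log2 units for Krt73. They were picked by their values, and the share of all named genes with such a gap was not computed. On BMP4 replicate 1, Krt84, Krt36, Krt86 and Dsg4 exceeded each of the 3 other arrays by over 1 log2 unit, which was 4 of the 28 genes, against 0.216% of all named genes. No gene of the list did so on any other array. Krt84 and Krt36 were in both of these groups of genes. Markers of other cell types also moved on BMP4 replicate 1. It was the lowest array for 6 of 6 Langerhans cell markers, 9 of 9 sebaceous gland markers, 4 of 4 T cell markers and 6 of 8 skeletal muscle markers, against 25.9% of all named genes. The mean log2 value of the Langerhans cell markers was 8.18 and 8.21 on the noggin arrays, against 7.002 and 7.86 on the BMP4 arrays, and that of the sebaceous gland markers was 7.88 and 7.56, against 7.05 and 7.49. That of the T cell markers was 6.61 and 6.78 on the noggin arrays, against 5.87 and 6.38 on the BMP4 arrays, and that of the muscle markers was 7.79 and 6.97, against 6.52 and 7.18. The 5 nail markers had means of 6.65 and 6.63 in noggin, against 6.86 and 6.63 in BMP4. BMP4 replicate 1 was the highest array for 3 of them, against 24.2% of all named genes, and the lines overlapped for 4 of the 5. Dermal papilla markers, from the mesenchyme at the base of the follicle, had 5.41 and 5.29 in noggin, against 5.35 and 5.43 in BMP4. Melanocyte markers had 5.55 and 5.59 in noggin, against 5.49 and 5.51 in BMP4. Sweat gland markers had 7.19 and 6.82 in noggin, against 6.85 and 7.14 in BMP4. The lines overlapped for 7 of these 9 markers. Krt77 had the widest range of them, with 8.65 and 7.31 in noggin, against 6.94 and 9.50 in BMP4. The part of these other cells in the values of the keratins, the shaft genes and the regulators, Gata3 included, was not tested.

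**Figure D3:**
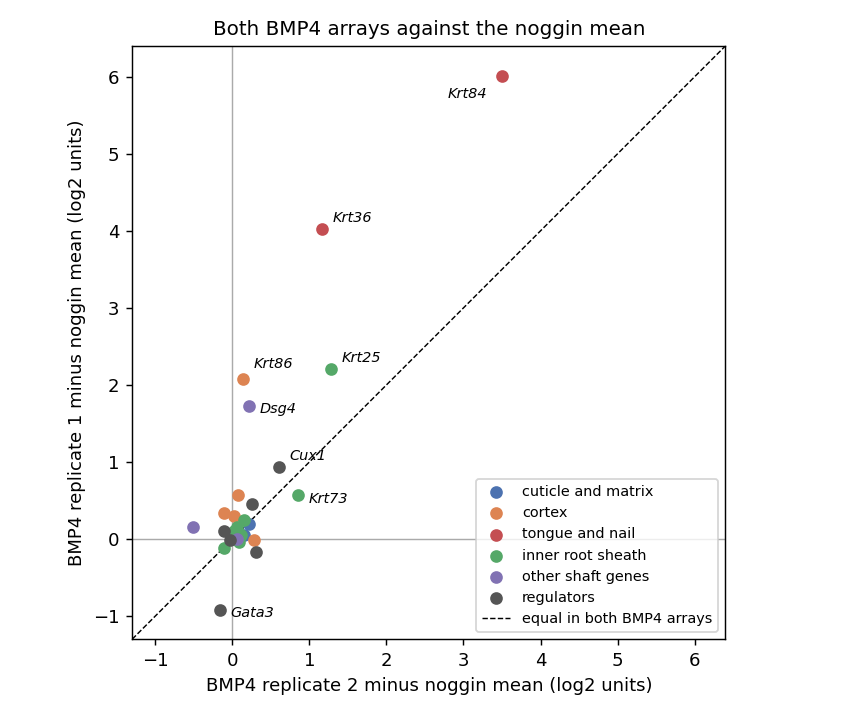
Each of the 28 genes by its value on BMP4 replicate 2 (horizontal) and BMP4 replicate 1 (vertical), both minus the mean of the noggin arrays in log2 units, coloured by class. Krt84 lies at 3.50 and 6.01, while Krt86, at 0.13 and 2.07, and Dsg4, at 0.22 and 1.73, are high on the vertical axis alone.

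Most neighbours of these genes in the keratin clusters lay near level between the lines. Type I keratin genes lie in a cluster on mouse chromosome 11 and type II keratin genes on chromosome 15. Taking the keratin genes measured here in chromosomal order, Krt84 stood between Krt86 and Krt82, whose differences were -1.10 and -0.10. Krt36 stood between Krt35 and the mucosal keratin Krt13, at -0.03 and -0.05. Krt25 stood between Krt24 and Krt26, at -0.17 and 0.11. Krt73 stood between Krt72 and the epidermal keratin Krt2, at -0.06 and 0.03. Each of Krt36, Krt25 and Krt73 was thus flanked on both sides by genes that differed by less than 0.2 between the lines. Keratins outside the hair and sheath classes also lay high in BMP4 epidermis. The stress keratin Krt6a was 2.23 above the noggin mean on BMP4 replicate 1 and 1.41 above it on BMP4 replicate 2, as wide as Krt25 at 2.20 and 1.28, and its relative Krt6b was 1.45 and 0.78 above.

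**Figure D4:**
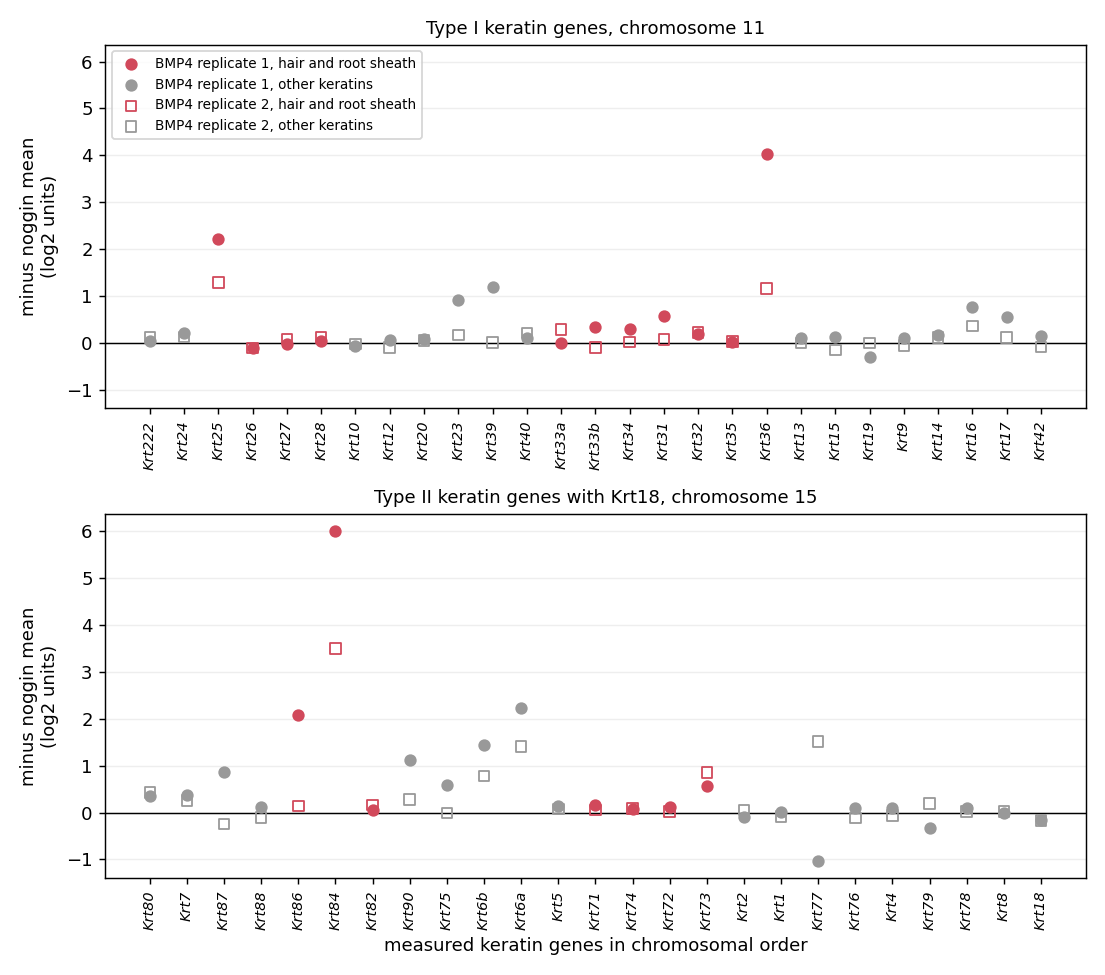
Value on BMP4 replicate 1 (filled) and BMP4 replicate 2 (open) minus the noggin mean, in log2 units, for measured keratin genes in chromosomal order. The hair and root sheath keratins of the list are in red, and all keratins not on the list are in grey. Krt25 and Krt36 on chromosome 11 stand out from neighbours near 0, and Krt84 on chromosome 15 lies beside Krt86, which is high on BMP4 replicate 1 alone.

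The sequences just upstream of these genes are shown for the 4 hair and sheath keratins of the list that were higher on both BMP4 arrays by the widest margins, and for Krt82, the level neighbour of Krt84. They are the 250 bases before the annotated start in RefSeq, build GRCm38.p6, 5′ to 3′ on the strand of the gene. Capitals mark TTTATGNG and AGATAA on either strand, and ATAA between 50 and 10 bases before the start on the strand of the gene, where a TATA box would lie.
Krt84, chr15:101532821-101533070, minus strand: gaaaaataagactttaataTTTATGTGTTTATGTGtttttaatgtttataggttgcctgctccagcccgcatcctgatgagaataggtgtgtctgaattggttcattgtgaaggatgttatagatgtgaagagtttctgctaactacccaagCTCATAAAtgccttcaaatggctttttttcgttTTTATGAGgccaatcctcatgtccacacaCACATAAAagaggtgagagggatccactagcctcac
Krt36, chr11:100105627-100105876, minus strand: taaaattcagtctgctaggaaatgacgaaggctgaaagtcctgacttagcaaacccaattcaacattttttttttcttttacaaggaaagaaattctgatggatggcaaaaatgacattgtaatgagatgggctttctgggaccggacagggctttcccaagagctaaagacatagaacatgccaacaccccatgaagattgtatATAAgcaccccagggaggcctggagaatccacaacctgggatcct
Krt25, chr11:99322952-99323201, minus strand: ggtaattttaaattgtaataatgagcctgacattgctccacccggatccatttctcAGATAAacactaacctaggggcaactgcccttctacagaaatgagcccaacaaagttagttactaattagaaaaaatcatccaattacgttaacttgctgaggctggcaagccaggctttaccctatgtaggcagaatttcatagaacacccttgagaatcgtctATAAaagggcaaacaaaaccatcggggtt
Krt73, chr15:101802361-101802610, minus strand: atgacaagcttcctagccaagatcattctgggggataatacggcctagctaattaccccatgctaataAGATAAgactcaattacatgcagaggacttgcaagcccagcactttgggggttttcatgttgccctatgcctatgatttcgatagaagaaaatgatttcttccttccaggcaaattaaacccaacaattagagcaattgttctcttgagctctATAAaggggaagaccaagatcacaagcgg
Krt82, chr15:101550660-101550909, minus strand: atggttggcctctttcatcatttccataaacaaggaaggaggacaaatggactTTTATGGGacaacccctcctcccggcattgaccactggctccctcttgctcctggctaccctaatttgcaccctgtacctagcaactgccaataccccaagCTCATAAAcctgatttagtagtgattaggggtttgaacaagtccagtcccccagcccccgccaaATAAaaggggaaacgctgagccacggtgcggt

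The motifs were picked after these sequences had been read, and a match is only a description of the letters. The RefSeq table gave a promoter for 20 of the 28 genes, not for Krt33a, Krt35, Krt74, Krt86, Dsg4, Crym, Sox9 and Trps1. TTTATGNG holds the TTTAT core of sites described for HOXC13, a homeobox activator of hair keratin genes, and was searched on both strands of the 250 bases. It was found in 6 of 7 hair shaft keratins, Krt31, Krt32, Krt33b, Krt34, Krt82 and Krt84, in 0 of 8 inner root sheath genes and in 2.52% of all 32851 promoters in the table. Krt84 held 5 matches, 3 of them on its own strand, and Krt82 held 2. AGATAA, of the kind bound by factors such as Gata3, was found on either strand in 5 of 8 inner root sheath genes, Krt25, Krt27, Krt71, Krt73 and Tchh, in 0 of 7 hair shaft keratins and in 9.99% of all promoters. ATAA in the TATA box window, on either strand, was found in 7 of 7 hair shaft keratins, 7 of 8 sheath genes, 1 of 4 regulators and 18.3% of all promoters. The reverse of TTTATGNG contains ATAA, and in Krt84 the 2 motifs overlap there. Both motif classes occur in genes that separated the lines and in genes that did not: Krt84 and Krt82 share TTTATGNG, at differences of -4.75 and -0.10, and Krt25 and Krt71 share AGATAA, at -1.74 and -0.11.

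Other hair follicle genes, a list of 38 regulators, stem cell markers and shaft proteins, were also measured. In noggin, 23 were lower and 15 higher on average, with a median of -0.047, and none passed in limma after adjustment. Noggin lay below BMP4 without overlap in 12 of the 38 genes, against 17.9% of all named genes, and above without overlap in 5 of the 38, against 15.7%. On the low side the 3 widest differences were those of S100a3, an S100 protein made in the hair cuticle, Msx2, a BMP target needed for shaft differentiation, and Dsc2, a desmosomal cadherin. S100a3 had 8.25 and 8.03 in noggin, against 9.86 and 9.67 in BMP4. Msx2 had 6.67 and 6.34 in noggin, against 7.63 and 6.92 in BMP4, and Dsc2 had 7.54 and 7.74 in noggin, against 8.51 and 7.83 in BMP4. S100a3 was high on both BMP4 arrays to a like degree, unlike Krt84 and Krt36. On the high side the 3 widest differences were those of the homeobox gene Barx2 at 0.59, Foxq1, the gene of the satin coat mutation, at 0.50, and the bulge stem cell marker Cd34 at 0.29. Cd34 had 7.99 and 7.91 in noggin, against 7.12 and 8.20 in BMP4, so BMP4 replicate 1 alone was low and BMP4 replicate 2 lay 0.25 above the noggin mean. Hoxc13 itself had 6.51 and 6.70 in noggin, against 7.17 and 6.30 in BMP4, and overlapped. Of 44 keratin-associated protein genes, which encode the matrix around the hair keratin filaments, 39 had a lower mean in noggin, against 52.1% of all named genes, 29 were highest on BMP4 replicate 1, against 24.2%, and the differences ran from -4.98 to 0.097.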

How the data were processed

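RNA was amplified by the NuGEN pico protocol and hybridised to 4 arrays, per the labels' protocols. The values as deposited are log2 intensities per probe set, made by the authors with Affymetrix Expression Console and RMA, per the submitters' processing notes, with versions not given. RMA equalises the distributions of the arrays and compresses changes of dim probe sets. Of 35556 probe sets, 21789 carried 1 gene symbol, 1621 several and 12146 none here. Limma 3.58.1 in R 4.3.3 was fitted to all probe sets, noggin minus BMP4 with group as the only term (2 residual and 2.085 prior degrees of freedom), two-sided, with Benjamini-Hochberg adjustment over all of them and a threshold of 0.05. The code was tested on simulated data. Replicates are pools of different animals, and the number of arrays limits the precision. The members and lists were chosen with earlier results of these data known. Every member measured was named, with values per array where the groups lay apart or the arrays spanned over 1 log2 unit. Of the 38 other follicle genes, the 3 with the widest difference in each direction were named, and Hoxc13, chosen after its values were seen. Same-numbered arrays did not deviate together (correlation -0.119). The alternatives were a replicate block, median centring, cyclic loess, leaving out dim probe sets, the mean of a gene's probe sets, a trend or robust prior, other thresholds and leaving out each array. Figures were drawn with matplotlib 3.10.9.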

Additional observations from a re-analysis of the deposited data

How the results depend on the processing

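Called genes of the list numbered 0 under every fit run, and 4 at an unadjusted p below 0.05. With the replicate number as a block, the count of called genes was 0; in this balanced design the block leaves each difference, and so the 23 genes lower in noggin, as it was. Pairing the numbers the other way, chosen after seeing the data, also gave 0 called genes. Leaving out probe sets dimmer than the median kept 15 of the 28 genes. It removed Krt31, Krt32, Krt33a, Krt34, Krt35, Krt82, Krt86, Krt26, Krt28, Krt72, Krt73, Krt74 and Dsg4. Of the 15 kept, 11 were lower in noggin and 5 did not overlap, with noggin below. On BMP4 replicate 1, 2 stood over 1 log2 unit above the others. The median of the 3 shaft keratins kept was -2.59. The filter used the mean over all 4 arrays. Krt84, Krt36 and Krt25 lay below the array medians of 6.04 to 6.06 in noggin and were kept through their BMP4 values. These counts and this median thus depend on the difference itself and are no support for it. Fewer genes were tested here, and the matching counts over all 28 genes were 23, 12 and 4. The share of all named genes under this filter was not computed.

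Leaving out 1 array gave 15 to 24 genes lower in noggin, 12 to 21 with both groups apart and noggin below, and 4 to 5 over 1 log2 unit above the rest on BMP4 replicate 1. Of all named genes, 47.4% to 55.3% were then lower in noggin, and 31.4% to 40.3% apart with noggin below. With all arrays, 6 genes were over 0.5 log2 units above the rest on BMP4 replicate 1. The share of all named genes was not computed for that gap, nor for the 4 to 5 genes. That range leaves out the run without BMP4 replicate 1, where the count cannot be made. The median difference ran from -0.23 to -0.046 over the list, -0.32 to -0.14 for shaft keratins, -0.28 to 0.014 for sheath genes and -0.11 to -0.034 for regulators. Leaving out an array kept the direction of a single gene in 94 refits and reversed it in 18, over 13 genes. The blocks, the other priors and leaving out dim probe sets cannot move a difference. Trps1 reversed to -0.022 with cyclic loess and -0.014 with the mean of its probe sets. The cause of the reversals was not tested. Their ranges were -0.15 to 0.51 for Psors1c2, -0.0891 to 0.0354 for Krt35, -0.24 to 0.0348 for Krt82, -0.36 to 0.31 for Krt27, -0.28 to 0.0647 for Krt71, -0.13 to 0.00244 for Krt72, -0.17 to 0.0142 for Krt74, -0.45 to 0.0433 for Tchh, -0.13 to 0.0808 for Crym, -0.30 to 0.17 for Lhx2, -0.0996 to 0.10 for Trps1, -0.34 to 0.10 for Krt33b and -0.29 to 0.0116 for Krt33a. In the 12 genes that did not overlap, with noggin below, leaving out an array cannot reverse the direction. Krt84, Krt36, Krt25, Krt73 and Cux1 are among these 12, and all 12 stayed lower in noggin with cyclic loess. Arrays give no detection call here, so the 5 genes with values below a lower quartile are the least certain.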
